A study of Mus musculus with 32 samples.

Results

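Untreated thymocytes of p53-/- mice were compared with untreated thymocytes of p53+/+ mice, on 2 arrays of each genotype. These 4 arrays were taken by their titles from a series of 32 single-colour Agilent mouse arrays in 12 groups. Thymocytes are the developing T cells of the thymus. All 4 samples carry the labels C57Bl/6, 6 weeks of age, no treatment and a pool of 2 mice, 1 male and 1 female. The labels do not give which part of Trp53 the p53-/- mice lack or the strain in which the allele was made. They also do not say whether the arrays of a genotype came from separate pools, so the spread between those 2 arrays may be technical. The p-values measure the spread within groups over all 32 arrays, most of them from other mouse lines (P72 and R72, below). A pair of other sets of arrays is set beside the 4 arrays. The first is 1 array at 2 h and 1 at 4 h after 5 Gy of gamma radiation for p53-/- and likewise for p53+/+. The second is the 8 untreated arrays of mice with proline (P72, 4 arrays) or arginine (R72, 4 arrays) at codon 72 of p53, under the same strain, age and pooling labels.

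p53 is a transcription factor that the ubiquitin ligase Mdm2 keeps at a low level until DNA damage stabilises it. It then switches on genes of cell cycle arrest, such as Cdkn1a, and of apoptosis, such as Bax, Bbc3 (Puma) and Pmaip1 (Noxa). Thymocytes die by p53-dependent apoptosis after irradiation, and mice without p53 are prone to thymic lymphoma. The untreated comparison asks how many of these genes already depend on p53 without damage, and what else differs between the 2 sets of mice.

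Values are levels on a log2 scale, the processed signal of a gene's brightest probe over the 75th percentile of its array, so that 0 is the signal that 75% of probes fall below. Differences are p53-/- minus p53+/+. They were tested in limma over 20552 genes with all 32 arrays in the fit, and a gene was called where the p adjusted by Benjamini-Hochberg was under 0.05. Of the probes, 64.0% and 62.6% were well above background on the p53-/- arrays and 54.2% and 64.4% on the p53+/+ arrays. The 2 p53-/- arrays differed from each other by 0.208 on average over genes (absolute log2 difference), the 2 p53+/+ arrays by 0.297, and arrays of different genotype by 0.341 to 0.377. Pairs of untreated arrays within P72 or within R72 differed by 0.27 to 0.376, so the p53-/- arrays were closer to each other than any of those 12 pairs. Each genotype had 1 array on either of 2 slides.

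The targeted gene was read by 2 probes on chromosome 11 (build mm7, coordinates from the files). The brighter Trp53 probe, at chr11:69662031-69662089, gave -0.25 and -0.09 on the p53-/- arrays and -0.11 and 0.26 on the p53+/+ arrays, a difference of -0.24 ± 0.24 (SE, adjusted p = 0.802 in limma). On this probe the P72 and R72 arrays were at 0.10 to 0.38, so their low readings on the next probe were not shared by both. Another Trp53 probe, at chr11:69671206-69671265, gave -1.80 and -1.56 on the p53-/- arrays, -0.56 and -1.12 on the p53+/+ arrays and -6.98 to -5.91 on the P72 and R72 arrays. Its difference of -0.84 ± 0.43 was not called (adjusted p = 0.487 over all probes). Because the deleted part is not given, neither probe checks the p53-/- label. Between them, at chr11:69665192-69665251, lies a probe of the unnamed transcript TC1467208, which was higher in p53-/-, with -0.62 and -0.75 on the p53-/- arrays against -2.60 and -2.48 on the p53+/+ arrays (difference 1.86 ± 0.21, adjusted p = 5.35e-05). The P72 and R72 arrays, at -3.10 to -2.35, lay with p53+/+. These 2 probes are shown because their readings set groups apart at the locus. They carry no capitals because no part of them was searched for.
Trp53 probe at 69671206: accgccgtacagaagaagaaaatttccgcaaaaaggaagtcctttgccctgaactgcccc
TC1467208 probe at 69665192: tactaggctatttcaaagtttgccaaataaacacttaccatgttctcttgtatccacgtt

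Levels of sex-linked genes went against the labels in part. The Y-linked Ddx3y was at 2.01 and 1.99 on the p53-/- arrays and 2.05 and 2.08 on the p53+/+ arrays, so all 4 arrays held a Y-linked transcript. Xist, the RNA that silences the second X chromosome in female cells, was not well above background on the p53-/- arrays, at -8.40 and -8.15, and was at -0.87 and -1.44 on the p53+/+ arrays, at least 95.7-fold higher in p53+/+. With an SE of 6.05 from groups of mixed sex the difference of -7.12 was not called (adjusted p = 0.751). No reading above background on the p53-/- arrays thus marks the female mouse that the label names. The p53+/+ levels of Xist were in turn far below the highest P72 or R72 array, at 5.69. Whether the p53+/+ samples held equal parts of male and female cells was not tested. Of the 673 X-linked genes tested, 1 was called (Xlr3c), and of the 3 genes placed on Y none was. The irradiated p53-/- arrays had Xist at -8.80 and -7.18 and Ddx3y at 1.14 and 1.87, while the irradiated p53+/+ arrays had Xist at 5.52 and 5.53 and Ddx3y at -6.81 and -7.67. Sex is thus confounded with genotype after irradiation. Before treatment Xist also set the genotypes apart, so sex make-up and genotype cannot be fully told apart there either.

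Few genes were called before treatment. Of the 20552 genes tested 147 were called (0.715%), 74 higher in p53-/- (0.36%) and 73 lower (0.355%). An unadjusted p under 0.05 in limma was reached by 2373 genes (11.5%). With 2 arrays a side, a gene that was not called may still differ. The median difference over all genes was -0.0075. Among the called genes the absolute difference had a median of 1.14 and ranged from 0.38 to 5.80, and 84 of them differed at least 2-fold. Values of the 2 genotypes did not overlap for any of the 147, and on both slides each kept its direction, but 53.7% of all genes also had arrays that did not overlap. Leaving out 1 of the 4 arrays left between 29 genes (without p53-/- replicate 1) and 46 genes (without p53-/- replicate 2), with 33 without p53+/+ replicate 1 and 42 without p53+/+ replicate 2, and with normexp background correction 15 were called.

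Most genes that p53 is known to switch on were not called on the untreated arrays. Of 55 such genes in 3 lists, 53 were tested, and 3 of these were lower in p53-/- (5.66%) and 0 higher. The median difference of the 53 was -0.08. Their arrays lay apart with p53-/- lower in 22 of 53 (41.5%), against 26.1% of all genes, and with p53-/- higher in 14, against 27.6% of all genes.

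Phlda3, an inhibitor of Akt signalling, gave -0.79 and -0.65 on the p53-/- arrays and 0.23 and 0.24 on the p53+/+ arrays. It was lower by 0.95 (log2 difference -0.95 ± 0.14, 1.94-fold, adjusted p = 0.000909 in limma). The P72 and R72 arrays spanned 0.17 to 0.64, so the p53-/- arrays stood below all other untreated arrays. Bbc3, a BH3-only protein that starts apoptosis, gave 2.41 and 2.62 in p53-/- and 3.33 and 3.28 in p53+/+, a difference of -0.79 ± 0.12 (1.73-fold, adjusted p = 0.00138). Here too the P72 and R72 arrays, at 3.13 to 3.50, lay with p53+/+. Zmat3, an RNA-binding zinc finger protein, gave -1.03 and -1.11 in p53-/- and -0.10 and -0.02 in p53+/+, a difference of -1.01 ± 0.21 (2.01-fold, adjusted p = 0.02). For Zmat3 the P72 and R72 arrays, at -0.98 to -0.44, lay between the genotypes. Against the codon 72 arrays the p53-/- arrays were called lower for Phlda3 (-1.14, adjusted p = 1.49e-06) and Bbc3 (-0.74, adjusted p = 8.43e-05), and the p53+/+ arrays higher for Zmat3 (0.69 ± 0.16, adjusted p = 0.0218). The calls of all 3 were lost when only the 4 untreated arrays were fitted (adjusted p = 0.0644 for Phlda3, 0.0911 for Bbc3 and 0.0582 for Zmat3) and with normexp (0.16 for Phlda3, 0.115 for Bbc3 and 0.269 for Zmat3). Leaving out p53-/- replicate 1 also lost Bbc3 (0.0711), and leaving out any 1 array lost Zmat3 (0.145 to 0.20).

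Cdkn1a, Mdm2 and Bax were among the targets that were not called. Cdkn1a, the cyclin-dependent kinase inhibitor p21, gave -3.30 and -3.40 in p53-/- and -3.33 and -2.84 in p53+/+, and these values overlapped (difference -0.27 ± 0.33, adjusted p = 0.861). Mdm2 differed by -0.22 ± 0.16 (adjusted p = 0.70), the pore-forming Bax by -0.18 ± 0.15 (0.74), the cyclin Ccng1 by -0.31 ± 0.15 (0.432) and Pmaip1 by -0.58 ± 0.25 (0.373). The arrays of these 4 did not overlap, with p53-/- lower. The death receptor gene Fas differed by -0.14 ± 0.13 (0.77), the stress gene Trp53inp1 by 0.06 ± 0.10 (0.914) and the nuclease gene Aen by -0.01 ± 0.14 (0.995). The probes of a gene did not always give the same answer. A dimmer Aen probe, well above background on 1 of 2 p53+/+ arrays, was at -5.58 and -5.60 in p53-/- and -4.71 and -4.68 in p53+/+ (difference -0.90 ± 0.18, adjusted p = 0.0208 over all probes), so that with every probe tested on its own 4 targets were called. Dimmer probes of Mdm2 (0.17 ± 0.14) and Fas (0.31 ± 0.27) had positive differences that were not called. Ddit4, an inhibitor of mTOR signalling, was at 5.81 and 5.84 in p53-/- and 6.58 and 6.59 in p53+/+, yet with its spread over all groups the difference of -0.76 ± 0.26 was not called (0.205). Dram1, an autophagy gene, had the largest positive difference of the 3 lists at 0.98 ± 0.33 (0.205). Cdkn2a, which encodes the Mdm2 inhibitor Arf, was well above background on 2 of the 32 arrays and was not tested. A p that misses the threshold does not show that these genes were equal.

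**Figure D1:**
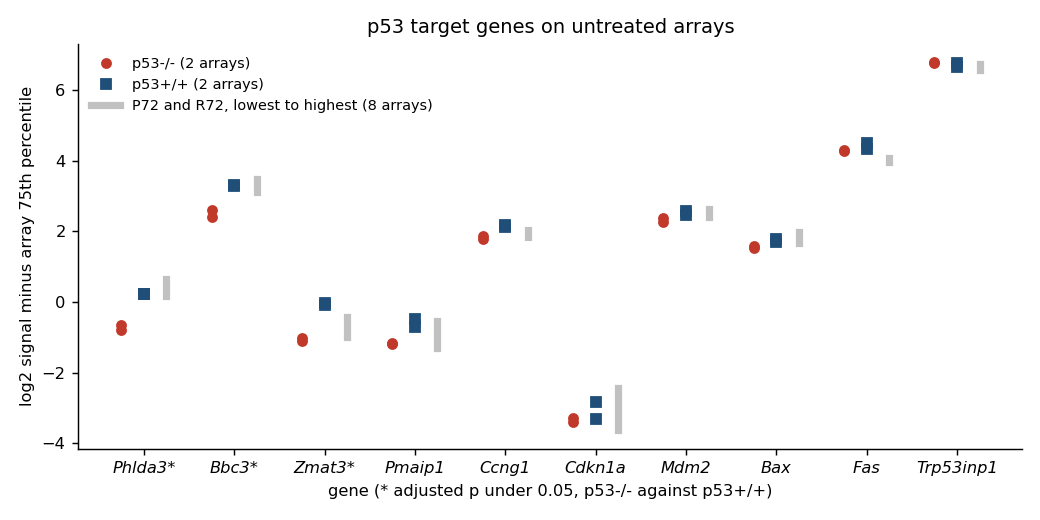
Levels of 10 p53 target genes on the untreated arrays (y axis, log2 level as defined above). Circles are the 2 p53-/- arrays, squares the 2 p53+/+ arrays and grey bars the range of the 8 P72 and R72 arrays. For Phlda3 and Bbc3 the p53-/- points lie below all others, whereas for Cdkn1a and Trp53inp1 the genotypes overlap.

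The same lists differed widely once the mice were irradiated. On the irradiated arrays 21.6% of all genes were called, 8.22% higher and 13.4% lower in p53-/-, a split that turned to more higher than lower when arrays were centred on their median (2949 against 2289). The median level of the arrays was -1.27 and -1.23 in irradiated p53-/- and -1.20 and -1.06 in irradiated p53+/+. Of the 53 targets 29 were lower in p53-/- and 2 higher, and the median difference of all 53 was -1.01 on the irradiated arrays and -0.08 on the untreated ones. Over the 29, whose irradiated median of -2.88 is set by their choice, the untreated median was -0.20, with 24 of the 29 negative and 3 called. Phlda3 was at -0.62 and -0.91 on the irradiated p53-/- arrays, against 5.39 and 5.44 on the irradiated p53+/+ arrays. Its difference was -6.18 ± 0.14 (adjusted p = 8.55e-19), or 5.23 beyond the untreated one. Bbc3 was at 2.54 and 2.54 in irradiated p53-/- against 6.46 and 6.72 in irradiated p53+/+. For both genes the p53-/- levels with and without radiation were thus close. Irradiated p53-/- arrays share slide 8 and irradiated p53+/+ arrays slide 7, and there slide, sex and genotype cannot be told apart.

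Probes under 2 names on chromosome 12 also differed more after irradiation, and were noticed after their values were seen. Whether the 2 names stand for separate genes was not checked. Dglucy (D-glutamate cyclase) gave -2.09 and -2.22 in p53-/- and -1.27 and -1.09 in p53+/+, a difference of -0.97 ± 0.17 (adjusted p = 0.0056). The neighbouring probe named 9030617O03Rik gave -4.13 and -4.47 in p53-/- and -2.72 and -2.85 in p53+/+, a difference of -1.52 ± 0.20 (adjusted p = 0.000271). On the irradiated arrays the differences were -5.67 ± 0.17 and -6.81 ± 0.20, so both readings had an untreated difference about as large as that of Phlda3 or larger and an irradiated one of similar size.

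The bases before the start of Phlda3, which was called, and before the upstream start of Cdkn1a, which was not, are shown. They set the sequence beside the result (RefSeq, GRCm38.p6, 250 bases, plus strand). Capitals mark the p53 half-site consensus, searched on both strands, which 7.13% of 32851 such windows hold. The Phlda3 window at chr1:135765835-135766084 holds none. The Cdkn1a window at chr17:29090729-29090978 holds 2, beginning 73 and 51 bases before the upstream start of that gene. A second Cdkn1a window, before the downstream start (chr17:29093519-29093768), and the 3 Bbc3 windows hold none. Among other targets that were not called, the windows of Mdm2, Ccng1 and Bax hold 1 each and that of Fas holds 0. A match is a description, and no match says only that these letters are not in this window.
Phlda3: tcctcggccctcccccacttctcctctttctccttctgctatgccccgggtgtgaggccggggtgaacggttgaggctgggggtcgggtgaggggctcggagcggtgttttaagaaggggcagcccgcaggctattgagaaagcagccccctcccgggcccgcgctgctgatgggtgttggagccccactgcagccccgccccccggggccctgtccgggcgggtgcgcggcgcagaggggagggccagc
Cdkn1a: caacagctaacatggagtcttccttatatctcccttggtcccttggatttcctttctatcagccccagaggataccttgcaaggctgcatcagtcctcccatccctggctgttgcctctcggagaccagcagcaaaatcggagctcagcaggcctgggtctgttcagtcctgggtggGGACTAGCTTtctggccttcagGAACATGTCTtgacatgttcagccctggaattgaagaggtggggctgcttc

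The largest differences lay outside the target lists. Vpreb3, a partner of the immunoglobulin chains of B cell precursors, was at -0.63 and -0.86 in p53-/- and at -4.70 and -4.56 in p53+/+, where 1 of 2 arrays was well above background (difference 3.89 ± 0.35, 14.8-fold, adjusted p = 1.81e-06). A second Vpreb3 probe gave a difference of 2.02 ± 0.25. On the irradiated arrays the brighter probe differed by 3.78 ± 0.35, where the p53-/- arrays were at -0.97 and 0.65 against -3.90 and -3.98 in p53+/+. The P72 and R72 arrays, at -4.93 to -3.34, lay with p53+/+.

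Marco, Saa3 and Apol10b were also among the genes with the largest positive differences. Marco, a scavenger receptor of macrophages, was at -0.12 and -0.30 in p53-/- and -3.38 and -3.29 in p53+/+ (difference 3.12 ± 0.48, 8.68-fold, adjusted p = 0.00163). Saa3, an acute phase protein, was at -0.45 and -0.59 in p53-/- and -4.21 and -3.93 in p53+/+ (3.55 ± 0.74, adjusted p = 0.0215). Apol10b, an apolipoprotein L gene, was at -1.22 and -1.10 in p53-/- and -5.26 and -4.73 in p53+/+, where 1 of 2 arrays was well above background (3.84 ± 0.55, adjusted p = 0.000801). In all 3 the untreated p53-/- arrays were above every P72 and R72 array, whose highest values were -1.85, -1.08 and -4.87. On the irradiated arrays none of the 3 was called, and Marco was at -2.74 and -1.17 in p53-/- against -1.34 and -0.86 in p53+/+. Its irradiated difference was 3.97 below the untreated one (± 0.68, adjusted p = 0.000948). Serping1, the inhibitor of complement C1, was higher by 2.07 ± 0.48 (adjusted p = 0.0452, 1 of 2 p53+/+ arrays well above background) and Fcna, a ficolin of the lectin pathway, by 1.43 ± 0.33 (0.0452). A330102K04Rik, named after its values were seen, had the largest positive difference of all genes called (4.28 ± 0.88, adjusted p = 0.0209), with -0.69 and -0.49 in p53-/- against -4.82 and -4.91 in p53+/+, where 1 of 2 arrays was well above background.

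Marker lists of 3 other cell types each held 1 or 2 called genes, all higher in p53-/-. Of all genes 0.36% were called higher. An unadjusted p under 0.05 in limma was reached by 8 of 13 B cell, 5 of 16 macrophage and 6 of 13 fibroblast and endothelium markers, and by 11.5% of all genes. The list of 14 B cell markers had 13 members tested, of which 2 were higher (Vpreb3 and Cd79b, a chain of the B cell receptor, by 0.81 ± 0.17, adjusted p = 0.0209) and 0 lower. All 13 had a positive difference, with a median of 0.80, and the summed signal was 72.8 to 74.8 times the 75th percentile in p53-/- and 61.7 to 65.9 times in p53+/+. Cd79b lies on chromosome 11, 36.8 Mb after Trp53. On the irradiated arrays Cd79b differed by 0.19 ± 0.17, and the B cell list had a median difference of 0.38. The macrophage list had 1 of 16 tested members higher (Marco), a median of 0.45, 14 positive differences and sums of 64.0 on both p53-/- arrays and 48.8 to 49.4 in p53+/+. The list of fibroblasts and endothelium had 1 of 13 higher (Col1a2, a collagen chain, by 1.28 ± 0.30, adjusted p = 0.0488), a median of 0.45, 9 positive differences and sums of 4.03 to 4.22 in p53-/- and 2.23 to 2.35 in p53+/+. Of the marker genes themselves, Ebf1 (B cells), Vsig4 (macrophages) and Emcn (endothelium) did not pass the filter on dim probes. In bulk RNA more cells of a type and more RNA per cell cannot be told apart. The part of such cells in the results was not tested.

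No marker of the thymocytes themselves was called in limma. Beside each list the number of members at an unadjusted p under 0.05 is given, a level that 2373 of all 20552 genes reached (11.5%). Of the double positive list 15 were tested and 0 called, with a median of -0.04 and sums of 1205 to 1371 in p53-/- and 1195 to 1337 in p53+/+ (0 at an unadjusted p under 0.05). Single positive markers had 0 of 16 called (median 0.12, 2 unadjusted) and double negative and Notch genes 0 of 17 (median 0.35, with 15 positive, 3 unadjusted). The nearest to a call there was Lyl1, an early progenitor transcription factor, at 0.96 and 0.91 in p53-/- and 0.08 and 0.07 in p53+/+ (difference 0.86 ± 0.24, adjusted p = 0.101). Genes tied to thymic lymphoma and growth had 0 of 16 called (2 unadjusted), the nearest being Ikzf1, the transcription factor Ikaros (-0.43 ± 0.13, adjusted p = 0.15), and Ccnd1, cyclin D1 (-0.91 ± 0.32, adjusted p = 0.219). G1/S genes had 0 of 26 called (median -0.08, 1 unadjusted) and G2/M genes 0 of 29 (median 0.001, 1 unadjusted).

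NF-kB targets had 2 of 25 higher, where 0.36% of all genes were, and 0 lower, with a median of 0.09. An unadjusted p under 0.05 in limma was reached by 3 of the 25, and by 11.5% of all genes. Tnf, the cytokine, was at -1.49 and -1.53 in p53-/- and -2.70 and -2.62 in p53+/+ (difference 1.15 ± 0.25, adjusted p = 0.0317). Ier3, an immediate early survival gene, was at -4.33 and -4.53 in p53-/- and -6.06 and -5.64 in p53+/+, with 1 of 2 p53+/+ arrays well above background (1.42 ± 0.25, adjusted p = 0.0056). Its difference turned to -0.78 ± 0.25 on the irradiated arrays. Tnf and Ier3 lie near each other on chromosome 17, at chr17:33296067 and chr17:33924245 (build mm7). On that chromosome 20 of 995 tested genes were called (2.01%), 11 of them higher. Interferon-stimulated genes had 0 of 30 called (median -0.10, 2 unadjusted), inflammatory caspases and inflammasome genes 0 of 10 (median 0.28, 1 unadjusted), immediate early genes 0 of 19 (median -0.02, 0 unadjusted) and heat shock genes 0 of 12 (5 unadjusted). The heat shock genes had the lowest median of the lists at -0.40, with 11 of 12 negative and sums of 399.6 to 419.3 in p53-/- and 511.2 to 563.1 in p53+/+, such as the chaperone gene Dnajb1 at 5.70 and 5.73 in p53-/- and 6.14 and 6.22 in p53+/+ (difference -0.47 ± 0.14, adjusted p = 0.132). Of the remaining cell type lists, 0 members were called in limma among dendritic cells (17 tested, median -0.05), neutrophils (14, median 0.24, with 12 positive), erythroid cells (8, 0.24, with 5 positive), thymic epithelium (15, 0.27, with 10 positive), adipocytes (8, 0.33, with 5 positive) and natural killer and innate-like lymphocytes (11, 0.13), with 0 or 1 in each at an unadjusted p under 0.05. Also with 0 called were p53 family members and regulators (13 tested, median -0.04, 1 unadjusted), the Bcl2 family outside the target lists (9, 0.07, 2), the circadian clock (16, -0.07, 2) and MHC class I and antigen processing (11, 0.09, 1). Glucocorticoid-responsive genes had 0 of 7 called and 2 unadjusted, and their median of 0.16 and their sums differed in direction, with sums of 18.5 to 19.2 in p53-/- and 35.0 to 38.3 in p53+/+. The leucine zipper gene Tsc22d3 was at 3.24 and 3.21 in p53-/- and 4.55 and 4.70 in p53+/+ (difference -1.40 ± 0.49, adjusted p = 0.223), and all 3 probes of Tsc22d3 and of the immunophilin gene Fkbp5 had negative differences.

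**Figure D2:**
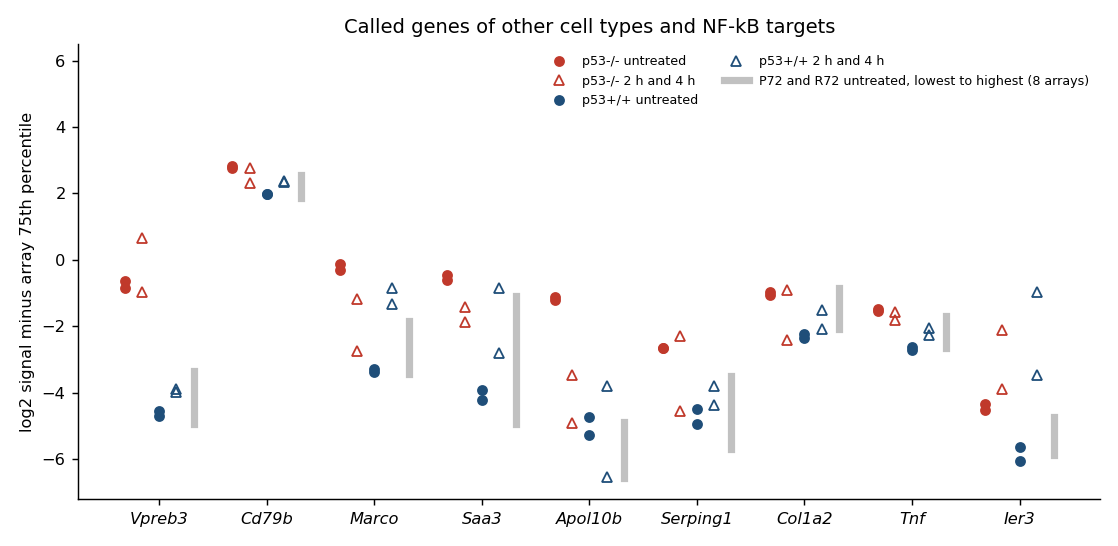
Levels of 9 genes called higher in untreated p53-/- thymocytes (y axis, log2 level as defined above). Filled circles are untreated and open triangles irradiated arrays, red p53-/- and blue p53+/+, and grey bars the range of the 8 untreated P72 and R72 arrays. Vpreb3 stays apart after irradiation, whereas Marco does not.

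Called genes were unevenly spread over the chromosomes. Chromosome 11, which carries Trp53, held 34 of its 1678 tested genes (2.03%), and chromosome 17 held 20 of 995 (2.01%), against 0.715% of all genes. Within 20 Mb of Trp53, 26 of 726 genes were called (3.58%), 10 higher and 16 lower, and on the rest of chromosome 11 8 of 952 (0.84%), all 8 higher. The side after Trp53 held 22 of 418 (5.26%) and the side before it 4 of 308 (1.3%). Genes placed on other chromosomes were called in 110 of 18496 (0.595%). In mice bred from targeted embryonic stem cells, DNA beside the altered gene can stem from the strain of those cells. The part of such DNA here was not tested.

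**Figure D3:**
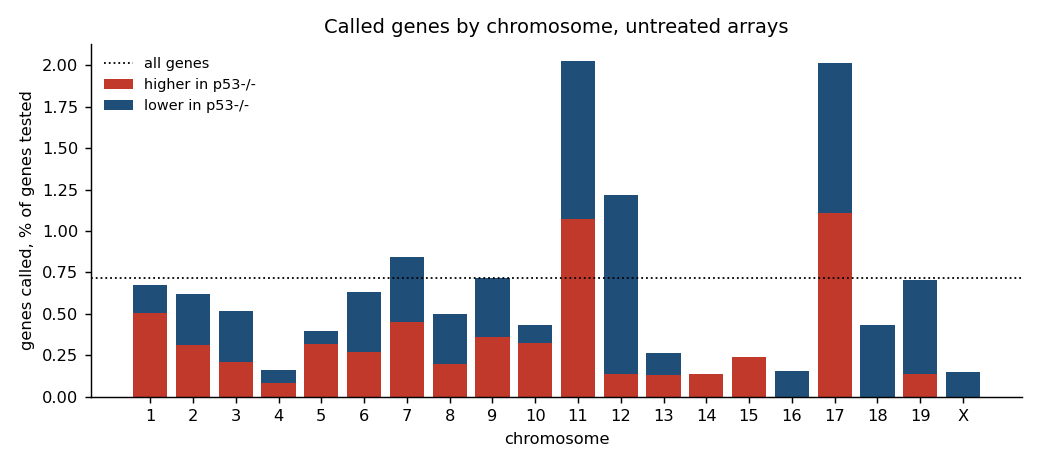
Share of tested genes called on each chromosome (y axis, percent), red for higher and blue for lower in p53-/-, with the dotted line at 0.715% for all genes. Chromosomes 11 and 17 stand at 2.03% and 2.01%.

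Near Trp53, Fbxo39, an F-box gene 2.73 Mb after it, had the smallest p of all genes. It was at -3.50 and -3.28 in p53-/- and 0.07 and -0.08 in p53+/+ (difference -3.38 ± 0.26, 10.4-fold, adjusted p = 1.39e-07). The P72 and R72 arrays, at -3.18 to -2.20, lay near p53-/-. Slfn9, a schlafen gene 13.4 Mb after Trp53, was not well above background in p53-/-, at -6.33 and -7.44, and was at -1.82 and -1.92 in p53+/+. It was lower in p53-/-, at least 30.2-fold (adjusted p = 0.00542). Its neighbour Slfn8 differed by -2.10 ± 0.31 (adjusted p = 0.00129). Tlcd2, a TLC domain gene 5.89 Mb after Trp53, went the other way, at -1.12 and -1.04 in p53-/- and -3.04 and -3.03 in p53+/+ (difference 1.96 ± 0.19, adjusted p = 3.67e-06). Rap1gap2, a regulator of Rap1, was higher by 1.78 ± 0.23, Scpep1, a serine carboxypeptidase, by 1.74 ± 0.30, and Trim25, a ubiquitin ligase of antiviral sensing, by 0.69 ± 0.12. A dimmer Trim25 probe, well above background on all 32 arrays, differed by 0.006 ± 0.13 (adjusted p = 0.995 over all probes). Rilp, an effector of Rab7, was not well above background on either p53+/+ array and was at least 2.94-fold higher in p53-/-. Dgke, a diacylglycerol kinase, differed by -1.03 ± 0.17, Tmem88 by -1.22 ± 0.22, Serpinf2, the antiplasmin gene, by -1.20 ± 0.24 and Prr6 by 0.63 ± 0.12.

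The codon 72 mice give these 26 genes another set of untreated levels. Both p53-/- arrays lay within the range of the 8 P72 and R72 arrays for 12 of the 26, and both p53+/+ arrays for 3. Against the codon 72 arrays 5 of the 26 were called for p53-/-, where 5.82% of all genes were, and 18 for p53+/+, where 3.75% were. Among the 121 called genes elsewhere, 67 were called for p53-/- and 38 for p53+/+. Those comparisons share the codon 72 arrays, and they use the same p53-/- and p53+/+ arrays that chose the genes, so their counts are a description and cannot be set against the shares of all genes. On the irradiated p53-/- and p53+/+ arrays, 15 of the 26 were called in the same direction and 0 in the opposite one. With only the 12 untreated arrays fitted, 13 genes within 20 Mb were called in place of 26, and with only the 4, 15.

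**Figure D4:**
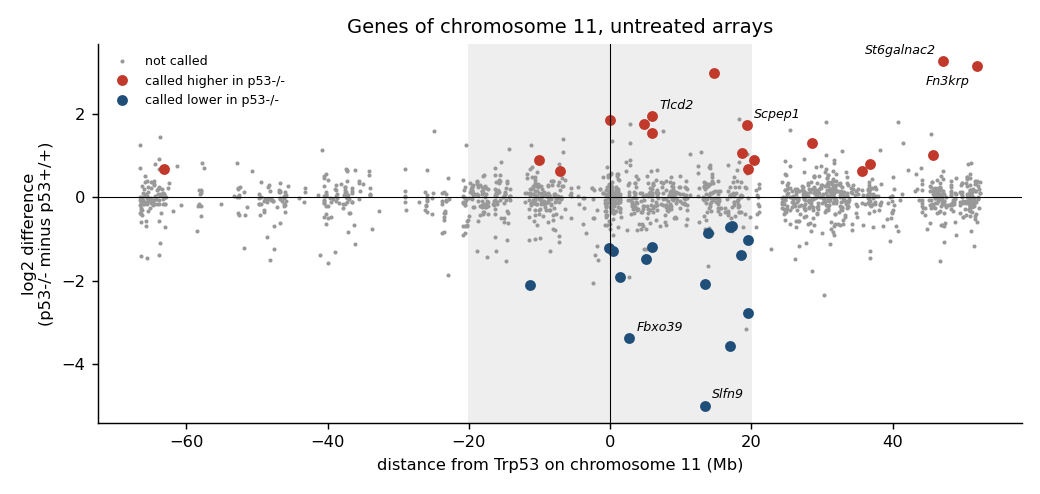
Differences of all tested genes on chromosome 11 (y axis, log2, p53-/- minus p53+/+) against their distance from Trp53 (x axis, Mb). Red points were called higher and blue points lower in p53-/-, grey points were not called, and the shaded band is 20 Mb to either side. All 16 genes called lower on this chromosome lie inside the band.

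St6galnac2, a sialyltransferase gene 47.1 Mb after Trp53, and Fn3krp, a ketosamine kinase gene 51.9 Mb after it, lay outside that window. St6galnac2 was at 0.45 and 0.35 in p53-/- and -3.02 and -2.75 in p53+/+ (difference 3.28 ± 0.36, adjusted p = 4.08e-05). It was at 0.29 and 0.51 on the irradiated p53-/- arrays and at 1.55 and 1.55 on the irradiated p53+/+ arrays, so the untreated p53+/+ arrays stood apart from irradiated p53+/+ and from the codon 72 arrays (0.11 to 1.66). Fn3krp was at -3.14 and -3.21 in p53-/- and not well above background in p53+/+, at -6.46 and -6.25, at least 9.04-fold higher (adjusted p = 0.00152). On the irradiated arrays it was at -3.06 and -2.86 in p53-/- and -3.41 and -2.94 in p53+/+.

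Among genes lower in p53-/- on other chromosomes, Xlr3c, an X-linked lymphocyte-regulated gene, had the largest difference, with -5.51 and -5.36 in p53-/- and 0.26 and 0.48 in p53+/+ (-5.80 ± 1.32, adjusted p = 0.0389). Its range over the P72 and R72 arrays, -3.09 to 1.25, was wide. Tff3, a trefoil factor, was lower in p53-/- both before (-2.82 ± 0.56) and after irradiation (-3.92 ± 0.56), as was C1qtnf5, a C1q-related secreted protein (-2.88 ± 0.57 and -3.35 ± 0.57), which was well above background on 1 of 2 untreated p53-/- arrays. The C1qtnf5 value rests on 1 probe, and the other differed by -0.14 ± 0.57 on the untreated arrays (adjusted p = 0.976 over all probes). Col20a1, a collagen gene, was at -3.61 and -3.26 in p53-/- and -1.93 and -1.70 in p53+/+ (-1.62 ± 0.35), and Mllt4, the junction protein afadin, at -1.34 and -1.45 in p53-/- and 0.07 and 0.34 in p53+/+ (-1.60 ± 0.35). Both were also lower after irradiation. Of the other Mllt4 probes tested 2 were also called lower over all probes, and 1 differed by -0.39 ± 0.33. Gfra1, a GDNF receptor, was lower by 2.00 on the log2 scale (-2.00 ± 0.32), and Mcts2, an imprinted retrogene, by 1.75 (-1.75 ± 0.21). Rbm12b, Cyt1 and Cgn were not well above background on any p53-/- array and were so on 1 of 2 p53+/+ arrays, at least 4.09-fold, 4.45-fold and 2.85-fold lower in p53-/-.

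Levels of 2 genes known to vary between inbred strains differed among groups that share a strain label. H60, a ligand of the receptor NKG2D that C57BL/6 mice are known to lack, had 2 probes. The probe that was brighter over the series was not well above background on any of the 4 untreated arrays, at -7.87 and -7.51 in p53-/- and -6.47 and -8.01 in p53+/+. It was at -8.60 and -8.19 on the irradiated p53-/- arrays, at 1.31 and 1.37 on the irradiated p53+/+ arrays and at 0.30 to 1.82 on the P72 and R72 arrays. The other H60 probe was well above background on all 32 arrays, at -3.97 and -3.78 in untreated p53-/-, -4.08 and -3.78 in untreated p53+/+, -3.90 and -3.72 in irradiated p53-/-, -0.91 and -0.87 in irradiated p53+/+ and -1.92 to -0.68 on the P72 and R72 arrays. Slc15a2, a peptide transporter, was at -6.02 and -6.44 in untreated p53-/- and -3.27 and -2.88 in untreated p53+/+ (difference -3.15 ± 1.11, adjusted p = 0.225), but at 2.08 and 2.03 in irradiated p53-/-, -2.66 and 1.90 in irradiated p53+/+ and 0.56 to 3.04 on the P72 and R72 arrays. A dimmer Slc15a2 probe differed by 0.61 ± 0.45 on the untreated arrays. Of the 8 strain-variable genes tested 0 were called in limma on the untreated arrays (2 at an unadjusted p under 0.05). All these mice carry the label C57Bl/6.

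Of the 147 called genes, 55 were called in the same direction on the irradiated arrays and 8 in the opposite one. Those called lower were found again in 38 of 73, where 13.4% of all genes were called lower, and those called higher in 17 of 74, where 8.22% were called higher. Both tests use the same estimate of each gene's spread, so finding a gene again is not independent of its choice. The 8 that turned, St6galnac2, Trim6 and Ier3 among them, were all higher in untreated p53-/-. For 52 of the 147 the test of the irradiated minus the untreated difference was called, as for 5.32% of all genes. The untreated arrays that chose the 147 also enter that test, so the 2 shares cannot be compared.

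**Figure D5:**
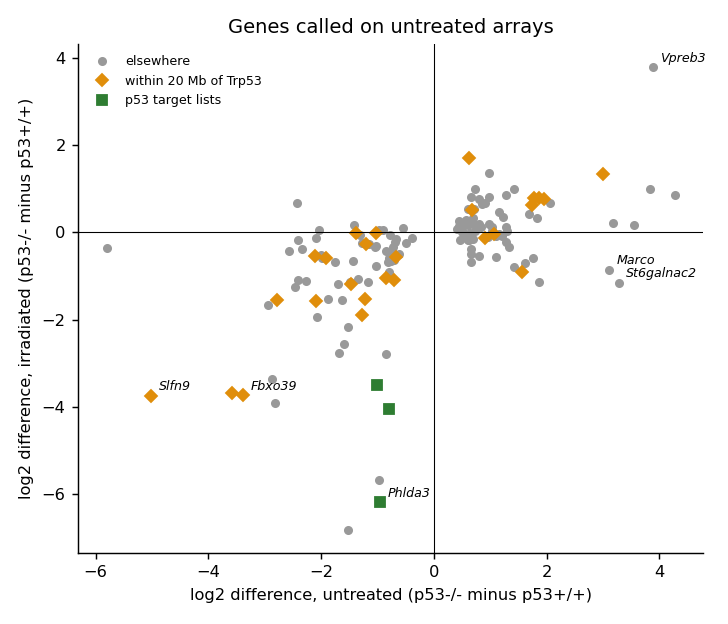
The 147 genes called on untreated arrays, with the untreated difference on the x axis and the irradiated difference on the y axis (both log2, p53-/- minus p53+/+). Orange diamonds lie within 20 Mb of Trp53, green squares are in the p53 target lists and grey circles are the rest. Vpreb3 and Fbxo39 lie near equal differences, Phlda3 far below, and Marco and St6galnac2 on opposite sides of 0.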

How the data were processed

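RNA was labelled with Cy3 and read in 1 channel. Per the file headers, the authors' scanner files hold spot intensity from Agilent Feature Extraction 9.5.3.1 (9.5.3 per the submitters' processing notes), with the background removed and no scaling between arrays. The authors also deposited a table of log2 intensity, of unstated method, used as an alternative. Spots flagged as outliers (0.223%) were set to missing, spots of a probe averaged, each array divided by its 75th percentile, and log2 taken. A filter kept probes that passed the well-above-background flag on 4 or more of the 32 arrays and the brightest stood for its gene. Names were updated by accession for 5141 of 41174 probes.

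Group means were fitted over all 32 arrays in limma 3.58.1 (R 4.3.3), because 2 arrays a side give a poor estimate of spread and the irradiated p53 groups have 1 array each. Contrasts were two-sided, with p adjusted by Benjamini-Hochberg over all genes. Tables were handled with the R packages jsonlite 2.0.0 and data.table (version 1.17.8), and Python 3.11.15 with matplotlib 3.10.9 drew the plots. The fit was tested on simulated data. A fold is a lower bound where 1 side had no array well above background, taken per array against the dimmest probe that passed the flag, or against the gene itself if brighter than that. The number of arrays limits the precision.

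Named genes are 12 fixed p53 genes, the 15 most higher and 15 most lower called genes with non-overlapping arrays, members called in each of 30 lists (up to 6, or 2 by p where none was called), up to 12 called genes within 20 Mb of Trp53 and up to 6 targets whose difference changed with irradiation, and only some of them are given. Members and lists were chosen with earlier results of these data known. Alternatives covered background correction, normalization, filter, arrays in the fit, slide, replicate number, probes and leaving out arrays.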

Additional observations from a re-analysis of the deposited data

Results flagged for a closer look

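For the genes below the p53-/- minus p53+/+ difference on the irradiated arrays differed from that on the untreated arrays by the test of the difference itself (limma, all adjusted p under 0.05), given as irradiated minus untreated on the log2 scale. Among p53 targets it was -5.23 for Phlda3, -3.79 for Psrc1, -3.61 for Pmaip1, -3.55 for Cdkn1a, -3.54 for Aen, -3.26 for Bbc3, -2.90 for Ccng1, -2.69 for Ei24, -2.52 for Bax, -2.49 for Zmat3, -0.97 for Trp53inp1 and -0.87 for Fas. Among other genes with a lower value after irradiation it was -4.43 for St6galnac2, -3.97 for Marco, -3.01 for Trim6, -2.96 for Fn3krp, -2.84 for Apol10b, -2.47 for Rilp, -2.20 for Ier3 and -1.20 for Tlcd2. It was positive for Tmem267 (3.09), Cyt1 (2.24), Rps6kl1 (2.09), Prr6 (1.07), Mcts2 (1.07) and Dgke (1.03). The irradiated arrays of a genotype lie on 1 slide each, so slide, sex and genotype cannot be told apart there. Within p53+/+, Xist, Ddx3y and H60 also differed between untreated and irradiated arrays. Radiation can thus not be told apart from other differences between those mice. Groups of 2 arrays are too small for a test of single outlying arrays.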

How the results depend on the processing

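No called gene that was tested changed sign under any of the 19 alternatives fitted, but many calls did not last. The 147 genes called became 101 to 203 under the alternatives other than normexp (15) and leaving out 1 array (29 to 46). Genes near Trp53, 26 in the report, were 3 with normexp, 15 with the 8 p53 arrays or only the 4 untreated ones, 13 with the 12 untreated arrays (added after seeing the data), 11 in a window of 10 Mb and 8 to 11 without 1 array. The 3 p53 targets called lower became 0 with normexp and with the 8 or the 4 arrays, and 1 to 2 without 1 array. The irradiated groups hold 1 array each and add no residual spread, so the fits on 8 and on 4 arrays give the same values. Of the 147, 37 were still called with 4 arrays and 73 with 12. Irradiated calls were 885 with normexp, and changes of the difference 214, with 636 without a filter. Calls against the codon 72 arrays fell to 76 for p53-/- and 46 for p53+/+ with normexp and to 703 and 456 without a filter, and p53-/- had 724 with quantile normalization. The cause was not tested. Centring on the median turned 1689 higher and 2753 lower irradiated calls into 2949 and 2289, quantile normalization into 1688 and 1537, the authors' table into 2104 and 1606 and a filter on all 32 arrays into 1728 and 1610. Changes of the difference, 441 higher and 652 lower, became 830 and 517 with centring and 835 and 744 in the authors' table, and calls of p53-/- against codon 72, 562 and 635, became 570 and 460 there. With the 4 arrays 36.9% of calls were higher. The replicate number does not pair samples by the labels. The replicate block gave 170 calls in place of 147, and 27 near Trp53. Deviations of same-numbered arrays correlated at -0.149 over genes, and the crossed block gave 180. Slide as a block gave 203. All 8 p53 arrays share a scan date, so that block was not run. Of values of named genes under the alternatives, 712 kept direction and side, 226 lost the call and 42 within 1 slide moved by more than the replicate spread.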
